A study of Mus musculus with 16 samples.

Results

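The comparison described here is the effect of losing T1α that fetal lungs at 18.5 days post coitum (E18.5) and lungs at term had in common. All 16 arrays of the series entered it: the 8 whose titles call the lung homozygous for the T1α null allele, T1α(-/-), were set against the 8 called wild type, T1α(+/+), with developmental stage held as a block. The T1α(-/-) arrays carry the letters A to E at E18.5 and F to H at term. The T1α(+/+) arrays carry I to M at E18.5 and N to P at term, so that each genotype had 5 lungs before birth and 3 from pups killed soon after delivery. Every array carried the RNA of 1 whole lung. The lungs came from matings of T1α heterozygotes, so the null allele was present in every cell of the animal from conception and T1α(-/-) and T1α(+/+) pups could be littermates. Litter, sex, genetic background and hybridization day are not given in the labels. Because E18.5 holds more arrays, the shared effect weights it more than term.

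T1α is the product of Pdpn and is also called podoplanin. It is a mucin-like glycoprotein of the plasma membrane that links to the actin cytoskeleton through its short cytoplasmic tail. In the lung it coats the apical surface of alveolar type I cells, the flat cells through which gas is exchanged, and it is also carried by lymphatic endothelium. Mice without it die at birth of respiratory failure, with narrow air spaces and few thin type I cells.

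Promoters are printed for 4 genes: Pdpn, since the genotyping reaction of the study looked for a stretch of its promoter that the targeted allele lacks; Ccl21a, since a probe set of its family gave the other called difference; and Ccn1 and Nr4a1, which had the largest shared differences among the immediate early genes tested. The sequences are from RefSeq on GRCm38.p6 and run from 250 bases before to 50 bases after the annotated start, on the strand of the gene. They lie at chr4:143299515-143299814 on the minus strand for Pdpn, chr4:42773942-42774241 on the minus strand for Ccl21a, chr3:145649936-145650235 on the minus strand for Ccn1 and chr15:101266596-101266895 on the plus strand for Nr4a1. Capitals mark matches to a GC box (GGGCGG or CCGCCC), to the half-site of a cyclic AMP response element (TGACGT or ACGTCA) and to its variant (TGACGCA or TGCGTCA), searched on both strands. In Ccl21a, which held none of them, capitals mark the bases that differ in at least 1 of 3 near-identical copies instead.
Pdpn: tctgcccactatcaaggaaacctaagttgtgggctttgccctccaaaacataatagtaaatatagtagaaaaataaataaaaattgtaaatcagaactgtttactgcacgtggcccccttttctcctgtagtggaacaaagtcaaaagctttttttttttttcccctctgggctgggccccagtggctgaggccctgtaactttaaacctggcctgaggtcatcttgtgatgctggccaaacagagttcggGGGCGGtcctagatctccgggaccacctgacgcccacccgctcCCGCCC
Ccl21a: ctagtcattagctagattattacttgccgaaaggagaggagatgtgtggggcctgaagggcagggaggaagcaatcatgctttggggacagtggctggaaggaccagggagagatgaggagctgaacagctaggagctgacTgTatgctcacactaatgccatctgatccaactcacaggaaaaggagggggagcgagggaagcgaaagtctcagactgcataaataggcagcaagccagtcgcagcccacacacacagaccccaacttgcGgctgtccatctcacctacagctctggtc
Ccn1: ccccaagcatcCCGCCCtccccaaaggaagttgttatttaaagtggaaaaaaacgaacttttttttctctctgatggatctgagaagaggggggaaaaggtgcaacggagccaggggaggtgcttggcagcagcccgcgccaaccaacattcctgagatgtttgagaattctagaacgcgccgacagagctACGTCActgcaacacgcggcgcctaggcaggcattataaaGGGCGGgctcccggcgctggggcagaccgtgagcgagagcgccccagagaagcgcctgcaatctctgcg
Nr4a1: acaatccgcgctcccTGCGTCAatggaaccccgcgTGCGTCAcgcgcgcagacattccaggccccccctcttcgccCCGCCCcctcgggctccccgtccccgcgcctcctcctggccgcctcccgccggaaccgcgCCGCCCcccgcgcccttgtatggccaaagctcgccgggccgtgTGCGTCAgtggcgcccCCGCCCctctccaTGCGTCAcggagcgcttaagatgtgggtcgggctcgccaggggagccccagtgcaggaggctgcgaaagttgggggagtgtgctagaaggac
Pdpn held 2 GC boxes, and Ccn1 held 2 with 1 half-site. Nr4a1 held 3 GC boxes and 4 copies of the variant. Of 32851 mouse promoters of the same length, 35.7% held a GC box, 7.51% the half-site and 2.12% the variant. A match is a run of letters, and binding was not measured. Of 299 bases compared with Ccl21a, 297 were identical in Ccl21d and 296 each in Gm13304 and Gm10591, whereas Ccl21b matched at 97. The stretches were compared without gaps, shifted by a few bases at most, so the count for Ccl21b does not measure how alike the promoters are.

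Each array gave 1 signal for each of 12488 probe sets, scaled by the authors so that the trimmed means of the arrays were alike. Differences below are T1α(-/-) minus T1α(+/+) on the log2(signal + 16) scale, which understates the change of dim probe sets. A probe set entered the test if its median passed 52.2, the signal that 45% of all values exceeded, in at least 1 of the 4 groups. That left 6405 probe sets. Sftpb, the surfactant protein that marks the distal lung, gave signals of 1378.7 to 6674.7 over the 16 arrays. Array I, a T1α(+/+) lung of E18.5, stood apart: its lower quartile of signal was 29.8 against 8.7 to 15 on the others, and it correlated with them at 0.80 to 0.89. The ratio of the 3′ to the 5′ GAPDH control probe sets, a sign of RNA integrity, spread from 0.827 to 2.63 and was highest on G, O and N, all of term. In bulk lung, fewer cells of a type and less RNA per cell cannot be told apart.

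Across both stages, 2 of 6405 probe sets (0.0312%) passed an adjusted p of 0.05 in limma, and both fell in T1α(-/-) lungs: Pdpn itself and a probe set of the CCL21 chemokine family. No other gene was called. At an unadjusted p under 0.05 there were 123 probe sets with higher signal in T1α(-/-) lungs (1.92%) and 127 with lower signal (1.98%), together 3.9% of those tested, or 136 and 77 with each array centred on its median signal. For 4 probe sets (0.0625%) the genotypes did not overlap at either stage and differed the same way, and these were Pdpn, the CCL21 probe set, Plxna2 and Bscl2. Genotypes assigned at random within stages would separate a probe set this way in a share of 0.000397 of arrangements. Among 6405 probe sets a few would then be separated by chance.

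The Pdpn probe set gave signals of 1.4, 16.5, 19.8, 21.2 and 8.6 in the T1α(-/-) lungs at E18.5 and of 111.6, 114, 60.2, 135.5 and 126 in the T1α(+/+) lungs. At term it gave 9, 8.6 and 30 against 88.5, 39.7 and 214.9. Every T1α(-/-) lung lay below every T1α(+/+) lung, also across the stages, and the T1α(+/+) lungs of term spread more widely than those of E18.5. The shared log2 fold change was -2.01 ± 0.26 (SE), a 4.03-fold lower level, with an adjusted p of 0.000612 (limma). It stood at -2.10 in the E18.5 lungs and -1.86 in those of term, and the test of the difference between stages gave an unadjusted p of 0.651 in limma. An exact two-sided permutation test that reassigned genotypes within each stage gave p = 0.000397, the smallest that its 5040 arrangements can give. The labels were thus borne out on each array by the targeted gene, although the sources used here do not say where the probes lie relative to the deleted part.

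The other called probe set is annotated to 9 entries of the CCL21 family, Ccl21a, Ccl21b, Ccl21c and Ccl21d among them, which the array could not tell apart. CCL21 is a chemokine that lymphatic endothelium and lymphoid stroma make and that draws cells carrying the receptor CCR7. At E18.5 the T1α(-/-) lungs gave 33.9, 37.2, 61.3, 63.3 and 66, and the T1α(+/+) lungs 224.1, 185, 125.5, 213.6 and 151.5. At term the signals were 31.6, 40.9 and 59.2 against 106.2, 79.6 and 270.9. The genotypes were separated at both stages, and all 8 T1α(-/-) lungs were at 66 or below. The probe set fell by 1.46 ± 0.20 (SE) on the log2 scale, a 2.75-fold lower level, with an adjusted p of 0.00137 (limma). The difference was -1.52 at E18.5 and -1.35 at term, with an unadjusted p of 0.685 in limma for the difference between stages. The reference places the Ccl21 copies on chromosome 4, the chromosome of Pdpn. Ccl21a lies far from Pdpn there: their printed promoters start at base 42773942 and base 143299515 in turn.

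**Figure D1:**
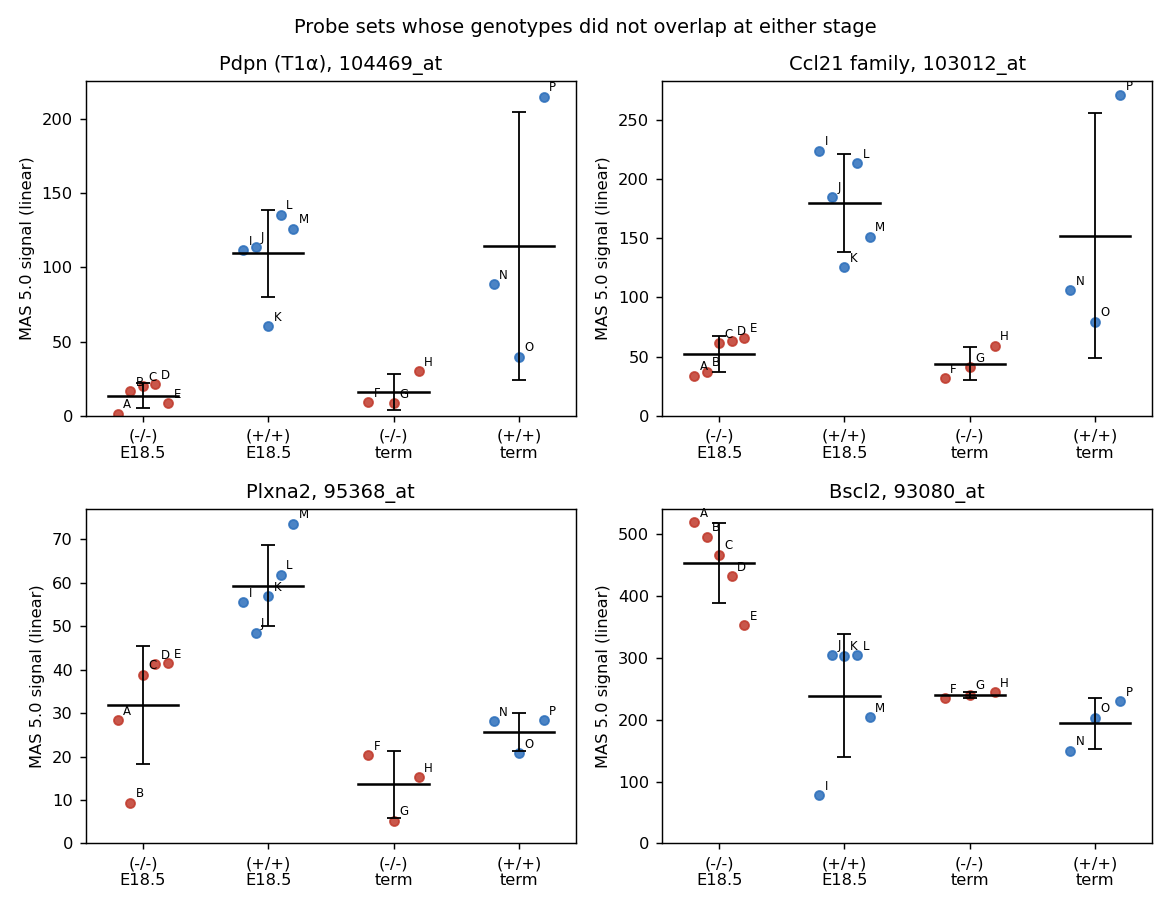
MAS signal (linear axis) of the 4 probe sets whose genotypes did not overlap at either stage, by group, with each point 1 lung, T1α(-/-) in red and T1α(+/+) in blue, and each bar the mean ± SD. Pdpn, the CCL21 probe set and Plxna2 lay lower in T1α(-/-) lungs and Bscl2 higher, and at term the gaps were small for Plxna2, 20.3 against 20.7, and Bscl2, 234.9 against 229.5.

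Pdpn and the CCL21 probe set also varied together from lung to lung, a relation examined after their values had been seen. Among the 8 T1α(+/+) lungs the correlation of their log2 signals was r = 0.893 (exact permutation p = 0.00231, adjusted 0.0136 over 6 relations) and Spearman's rho was 0.81 (exact p = 0.0218, adjusted 0.0436). Without the lungs farthest from the median Pdpn signal, O and P, r was 0.684, and with the stage means removed it was 0.915. Among the 8 T1α(-/-) lungs r was 0.599 (exact permutation p = 0.117, adjusted 0.176) and rho 0.335 (exact p = 0.413, adjusted 0.496), with r = 0.404 without A and H and 0.665 with the stage means removed. In the T1α(-/-) lungs Pdpn gave only 1.4 to 30. The lower quartiles of signal on their arrays were 10.1 to 15 at E18.5 and 9 to 10.2 at term. Correlations with Pdpn in those lungs therefore rest on signals near the floor. With 5 and 3 lungs of a genotype in a stage, no correlation within a single stage was computed.

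The GAPDH 3′ to 5′ ratio moved with both probe sets in the T1α(+/+) lungs. O, the T1α(+/+) lung with the highest ratio, 2.55, had the lowest signal of both probe sets in its genotype, and P, with the lowest, 0.853, had the highest of both. Over those 8 lungs the ratio on a log2 scale correlated with Pdpn at r = -0.86 (exact permutation p = 0.00491, adjusted 0.0136) and rho = -0.81 (exact p = 0.0218, adjusted 0.0436), and at r = -0.736 without O and N. With the CCL21 probe set it correlated at r = -0.863 (exact permutation p = 0.00682, adjusted 0.0136) and rho = -0.81 (exact p = 0.0218, adjusted 0.0436), and at r = -0.575 without O and N. Once the ratio had been regressed out, the correlation of Pdpn with the CCL21 probe set among T1α(+/+) lungs was 0.586. In T1α(-/-) lungs the ratio gave r = -0.248 with Pdpn (exact permutation p = 0.547, adjusted 0.547; rho = -0.407, exact p = 0.314, adjusted 0.471) and r = -0.347 with the CCL21 probe set (exact permutation p = 0.429, adjusted 0.515; rho = -0.048, exact p = 0.935, adjusted 0.935), or -0.445 and -0.038 without G and B. In the same T1α(+/+) lungs, 40 other tested probe sets correlated with Pdpn at least as highly as the CCL21 probe set did, and in the T1α(-/-) lungs 221 did. With the ratio as a covariate, the shared log2 fold changes were -2.09 for Pdpn (adjusted p = 4.08e-05) and -1.52 for the CCL21 probe set (adjusted p = 0.000107), both from limma.

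**Figure D2:**
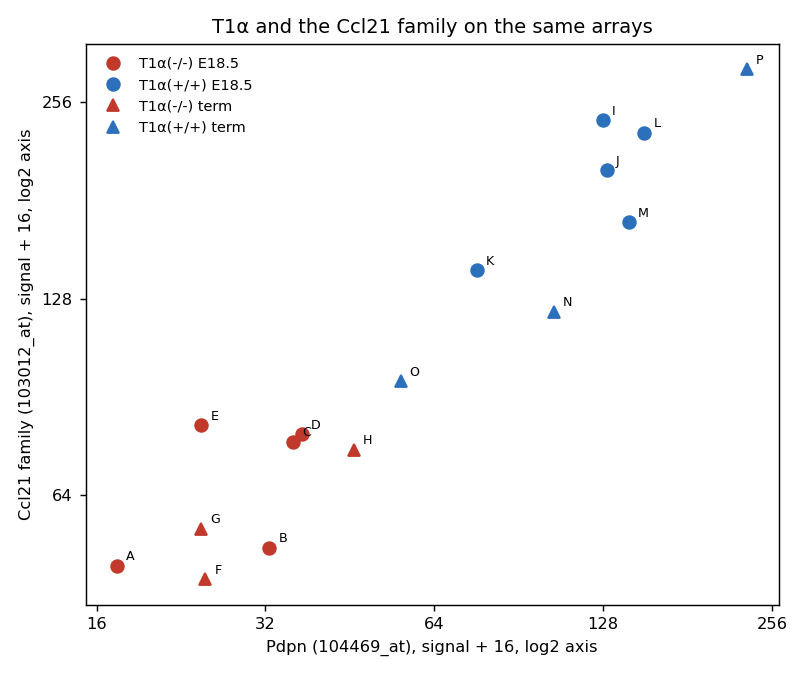
Signal + 16 of the Pdpn probe set (horizontal) against that of the CCL21 family (vertical), both on log2 axes, with circles for E18.5, triangles for term, red for T1α(-/-) and blue for T1α(+/+). The genotypes form separate clouds, and within T1α(+/+) the lungs line up from O, lowest in both, to P, highest in both.

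Plxna2 and Bscl2 were separated at both stages without passing the adjusted test, and since separation chose them no test of it is given. Plxna2 encodes plexin A2, a coreceptor for semaphorins, the guidance cues of axons and vessels. Its probe set gave 28.3, 9.4, 38.8, 41.3 and 41.5 in T1α(-/-) lungs at E18.5 against 55.5, 48.5, 56.9, 61.8 and 73.6, and 20.3, 5.2 and 15.3 at term against 28.1, 20.7 and 28.3. Its highest T1α(-/-) lung of term and lowest T1α(+/+) lung were 20.3 and 20.7, so the gap there was small. The shared log2 fold change was -0.64 ± 0.19 (SE; limma adjusted p = 0.953). The Plxna2 probe set passed the signal filter only through the T1α(+/+) lungs of E18.5, where it was highest. It did not pass a filter on the medians of the 2 genotypes. Bscl2 encodes seipin, a protein of the endoplasmic reticulum needed to form lipid droplets. Its signals were 518.6, 495.2, 466.3, 432 and 352.8 in T1α(-/-) lungs at E18.5 against 78.1, 304.6, 303.4, 303.8 and 203.8, and 234.9, 240.2 and 244.4 at term against 149.5, 203 and 229.5. The lowest of these, 78.1, was on array I. The shared log2 fold change of Bscl2 was 0.74 ± 0.22 (SE; limma adjusted p = 0.953), or 0.53 without I.

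Among probe sets with a single gene symbol, an unadjusted p under 0.01 and the same direction at both stages, 11 had higher and 17 lower signal in T1α(-/-) lungs, and the 12 of the latter with the largest differences are described with the former. P2rx6, an ATP-gated ion channel subunit, came nearest to the threshold among single genes other than Pdpn. Its signals were 79.7, 86.8, 82.3, 89.5 and 61 in T1α(-/-) lungs at E18.5 against 30.1, 29.6, 39.4, 32.5 and 59, and 44.6, 76.1 and 68.5 at term against 15.1, 27.9 and 59.9. Only at term did the genotypes overlap, through the T1α(+/+) lung P at 59.9. The shared log2 fold change was 0.80 ± 0.18 (SE; limma adjusted p = 0.497), with 0.84 at E18.5 and 0.73 at term, and without P the adjusted p was 0.0467. The P2rx6 probe set passed the signal filter only through the T1α(-/-) lungs, where it was highest.

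Pglyrp1, a secreted peptidoglycan recognition protein of neutrophil granules and airways, was alike in size at both stages, at 0.56 and 0.69. Its signals were 378.6, 307.9, 289, 206.8 and 495.4 against 278.4, 143.7, 207.2, 296.8 and 175.2 at E18.5, and 279.6, 207.2 and 433.6 against 155.9, 143.3 and 242.5 at term. The groups overlapped at both stages. Inmt, a methyltransferase abundant in lung, had a shared log2 fold change of 0.78, and its lowest T1α(-/-) signal at E18.5, 377.4, lay below the highest T1α(+/+) signal, 528.2. Lpcat1, which makes the saturated lecithin of surfactant, gave 459.3 to 639.9 at E18.5 against 303.4 to 411.6, without overlap, and 702.7 to 1191.6 at term against 700.1 to 885.9, with overlap. The other increases were Pip4k2c, Serpina3n, Tent5c, Tbc1d22a, Gpam and Sipa1, at shared log2 fold changes of 0.48 to 0.85. Pip4k2c, at 0.85, had 1.22 at E18.5 and 0.24 at term (difference between stages, unadjusted p = 0.0367 in limma).

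The largest decrease after Pdpn among single genes was in Vcan, which encodes the matrix proteoglycan versican. Its T1α(-/-) lungs gave 7.4, 31.1, 9.6, 20.1 and 53.1 at E18.5 against 98.5, 151.4, 107.7, 65.4 and 59.7, and 71.7, 40.6 and 17.6 at term against 45, 75.7 and 39.5. The genotypes were apart at E18.5 and mixed at term. The shared log2 fold change of -1.07 ± 0.28 (SE; limma adjusted p = 0.953) joined -1.54 at E18.5 and -0.30 at term. Vav1, an exchange factor of blood cells, had -0.95 in the shared fit, with -1.51 at E18.5 and -0.01 at term (difference, unadjusted p = 0.00603 in limma), and Polr2g, an RNA polymerase subunit, had -0.67 with -1.07 and -0.00. For these last genes the shared value was carried by E18.5. Twist2, a transcription factor of mesenchyme, had -0.62 with -0.44 and -0.93. The others, Nup54, Mesp2, Plxna2, Mrpl13 and Clns1a, had shared values of -0.85 to -0.59, and a brighter probe set of Clns1a gave -0.22. Vcan, Vav1, Nup54, Mesp2, Plxna2 and Mrpl13 passed the signal filter only through the T1α(+/+) lungs of E18.5, where they were highest.

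**Figure D3:**
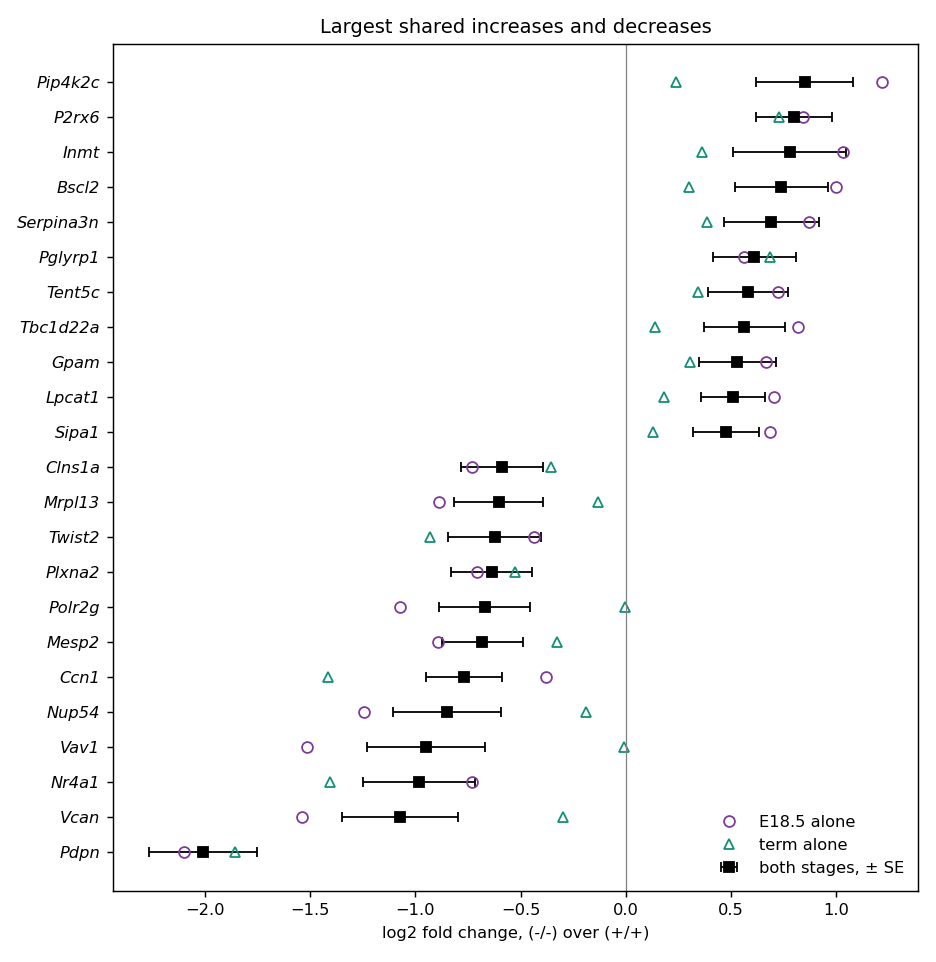
Log2 fold change, T1α(-/-) minus T1α(+/+), for the 11 increases and the 12 largest decreases at an unadjusted p under 0.01 with the same direction at both stages: squares with bars are the shared value ± SE, circles E18.5 and triangles term. Pdpn, at -2.01, is farthest from 0 with its stages close together, whereas Vcan and Vav1 lie far from 0 at E18.5 and near it at term.

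Ccn1 and Nr4a1 had larger differences at term than at E18.5. Ccn1 encodes a matricellular protein that cells make within minutes of stretch or serum. Its signals were 28.6, 24.7, 22.3, 16.8 and 22.8 in T1α(-/-) lungs at E18.5 against 27.2, 45.7, 47.6, 25.3 and 30.9, and 145, 232.2 and 234.7 at term against 548.9, 613.9 and 520.8. The term groups were far apart, and 1 T1α(-/-) lung kept the E18.5 groups from being separated. The shared log2 fold change of Ccn1 was -0.77 ± 0.18 (SE; limma adjusted p = 0.555), from -0.38 at E18.5 and -1.42 at term, and the difference between stages had an unadjusted p of 0.0029 in limma. The study, which calls this gene Cyr61, stated that other methods did not bear out its fall on the arrays. It also reported, without showing the data, significantly more Cyr61 protein in the absence of T1α. Nr4a1, the nuclear receptor Nur77, gave 3.4, 32.2, 34.6, 31.3 and 36 against 44, 31.1, 81, 43.2 and 74.2 at E18.5, and 133.6, 355.1 and 605 against 785.9, 1081.6 and 717.1 at term. Here too the term groups did not overlap and those of E18.5 did. Its shared log2 fold change was -0.98 ± 0.27 (SE; limma adjusted p = 0.953), with -0.73 and -1.41 in turn.

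Fos and Egr1, transcription factors of the same rapid response, had wide differences at term. Fos gave 27.5 to 81.3 in T1α(-/-) lungs at E18.5 against 34.2 to 85.3, but 328.2, 1636.7 and 712.1 at term against 2283.4, 2487.1 and 2239. Its log2 fold changes were -0.04 and -1.66 (difference, unadjusted p = 0.00587 in limma). Egr1 gave 30.9, 116.7 and 43.5 at term against 242.5, 262.5 and 174.5, with 0.17 at E18.5 and -1.74 at term (difference, unadjusted p = 0.000846 in limma). For both, the T1α(-/-) lungs of term lay below all T1α(+/+) lungs of term. Fosb, a partner of Jun proteins, had -0.03 and -0.64 in turn, and Dusp1, a phosphatase of MAP kinases, had 0.23 and -0.69 (difference, unadjusted p = 0.0331 in limma). Over the 17 tested genes of the immediate early response, 4 had higher and 13 lower signal, and 3 passed an unadjusted p under 0.05, all lower: Nr4a1, Ccn1 and Fos. The median was -0.17 in the shared fit, from 0.06 at E18.5 and -0.64 at term. Summed over 19 genes on the array, their signals were 5857 to 7197.8 in T1α(-/-) and 3919 to 8011.8 in T1α(+/+) lungs at E18.5, and 8472.8 to 14053.1 against 15073.5 to 18055.8 at term. The list therefore did not overlap at term and did at E18.5. The neutrophil list did not overlap at term either, nor did antigen presentation and interferon, at 4530.5 to 4886.3 against 4951.7 to 5607.4. With 3 lungs of each genotype such gaps arise easily by chance, so these are descriptions. The term lungs were taken after birth and the others before it, and what differed between stages beyond age cannot be told apart.

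The agreement of the stages was read over all probe sets, since the T1α(-/-) and T1α(+/+) lungs of E18.5 and term share no array. At E18.5 alone 406 probe sets (6.34%) had an unadjusted p under 0.05, and of these 237 (58.4%) differed in the same direction at term, 5 with an unadjusted p under 0.05 there and 4 of those in the same direction. At term alone 33 probe sets (0.515%) had an unadjusted p under 0.05, and 17 of them (51.5%) had the same direction at E18.5. Of all 6405 tested, 3573 (55.8%) had the same direction at both stages, and across probe sets, which are not independent, the log2 fold changes of the stages correlated at r = 0.15 and rho = 0.157. Read against 55.8%, the shares for probe sets picked at one stage are given as descriptions. The share from E18.5 was 41% without the T1α(+/+) lung N and 67.4% without the T1α(-/-) lung F.

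The test of a difference between stages called 0 probe sets in limma (lowest adjusted p of 1), and 94 had an unadjusted p under 0.05. Over the tested probe sets, stage took 39.5% of the sum of squares, genotype 4.18%, their interaction 2.55% and the spread among lungs of a group 53.7%, with 1, 1, 1 and 12 degrees of freedom. If all 15 degrees of freedom were equal, each would hold 6.67%. Genotype and interaction each took less, but since stage took 39.5%, this does not place them below the spread among lungs. Asxl1, a chromatin regulator, was a case of opposite values, with -0.43 at E18.5 and 0.74 at term (difference, unadjusted p = 0.00105 in limma) and 0.00 shared.

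**Figure D4:**
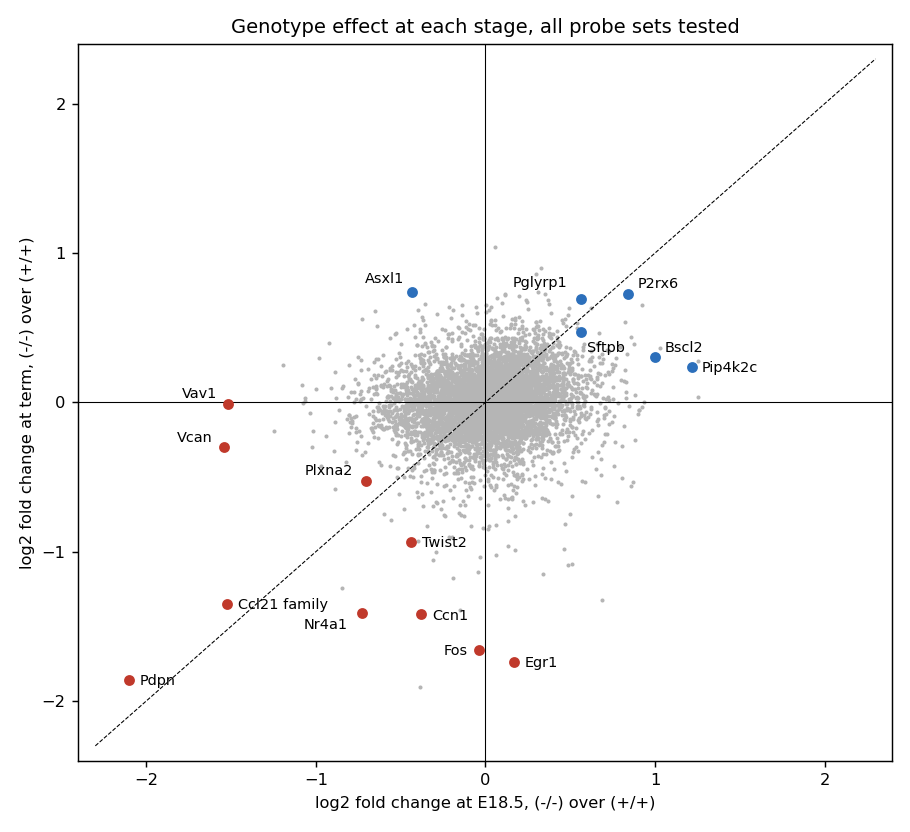
Log2 fold change, T1α(-/-) minus T1α(+/+), at E18.5 (horizontal) against term (vertical) for the 6405 tested probe sets in grey, with named ones in red (lower) and blue (higher) and a dashed line of equal values. Pdpn and the CCL21 family stand alone near the line at the lower left, Ccn1, Fos and Egr1 lie below it, and the cloud as a whole shows a correlation of 0.15.

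Genes were then taken by role, each counted once through its brightest probe set. Of 5021 genes tested beside Pdpn, 54.3% had higher signal in T1α(-/-) lungs, 97 (1.93%) passed an unadjusted p under 0.05 in each direction, 56% had the same direction at both stages, and the median log2 fold change was 0.02. No member of any list passed the adjusted test, so the counts below are descriptions. The sign of the median turned with quantile normalization or median centring for matrix genes, G1 regulators and lung transcription factors, whose medians were near 0.

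The surfactant and type II cell genes had the highest median of the epithelial lists. Of 10 tested, 9 had higher signal in T1α(-/-) lungs, those 9 at both stages, and the median was 0.33, with 0.36 at E18.5 and 0.16 at term. Lpcat1, Sftpb and Muc1 had an unadjusted p under 0.05. Sftpb, which the surfactant film cannot form without, gave 6674.7, 6221.5, 5842.4, 3909.6 and 4176.6 in T1α(-/-) lungs at E18.5 against 2401.8, 2691.8, 4696.5, 5541.2 and 3296.9, and 2506.5, 1999.4 and 2185.3 at term against 1430.9, 1378.7 and 2060.4. The groups overlapped at both stages, and its shared log2 fold change was 0.53 ± 0.19 (SE; limma adjusted p = 0.953). Muc1, a mucin of the apical surface, had 0.51, whereas Sftpc, the surfactant protein restricted to type II cells, had 0.14 at each stage. Summed over 11 genes, the list gave 25945 to 41609 against 21039.7 to 37047.7 at E18.5 and 16745.4 to 18556.5 against 13272.1 to 17141 at term, so that the groups overlapped.

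The type I cell genes other than Pdpn had no common direction. Of 7 tested, 3 had higher and 4 lower signal, with a median of -0.05. Ager, the receptor for advanced glycation end products had 0.34, Cav1, the coat protein of caveolae, had -0.12, and Hopx, a homeodomain protein, had -0.05. S100a6, a calcium-binding protein, was the member with an unadjusted p under 0.05, at -0.42 in both stages. Airway epithelial genes had 7 of 9 higher and a median of 0.18, led by Scgb1a1, the club cell secretory protein, at 0.46, and no member at an unadjusted p under 0.05.

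The lymphatic endothelial genes tested beside the CCL21 probe set had shared log2 fold changes of -0.17 to 0.19. Lyve1, the hyaluronan receptor of these vessels, had 0.19, and Flt4, the receptor for their growth factor, had 0.07. The growth factor itself, Vegfc, had -0.02, and Angpt2, a ligand for the receptor Tek, had -0.17. None of the 4 had an unadjusted p under 0.05. The signals of the 7 lymphatic genes on the array summed to 324.2 to 396.5 in T1α(-/-) and 261.4 to 460 in T1α(+/+) lungs at E18.5, and to 316.3 to 437.4 and 352 to 454.6 at term, which overlapped at both stages. Among 17 genes of blood endothelium 13 had higher signal, with a median of 0.11, and Gja4, the connexin of arteries, was the 1 at an unadjusted p under 0.05, at 0.57. Only 5 of the 17 had the same direction at both stages, 4 of them higher, and the medians were 0.16 at E18.5 and -0.01 at term. Of 4 tested chemokine and adhesion genes all had lower signal, with Vcam1 at -0.25, and none had an unadjusted p under 0.05.

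In mesenchyme and smooth muscle, 9 of 12 genes had lower signal and the median was -0.09, from -0.21 at E18.5 and -0.01 at term. Of the 12, 4 had the same direction at both stages. Tpm2, a tropomyosin, had -0.54 with an unadjusted p under 0.05, and Acta2, smooth muscle actin, had -0.51 without. Matrix genes were divided evenly, with 15 higher and 15 lower, and those with an unadjusted p under 0.05 were Vcan, Ccn1, also an immediate early gene, and Tgfbi, all lower, while Eln, the elastin gene, had 0.20. Ephrins, semaphorins and their receptors had 14 of 22 higher. Plxna2, Efnb2 and Sema3a, at -0.64, -0.49 and -0.50, had lower signal with an unadjusted p under 0.05, and Efna3 had higher signal, at 0.33, from 0.55 at E18.5 and -0.02 at term. Efnb2 is the ephrin of arterial endothelium, and Sema3a a secreted repellent for axons that acts through plexins. Like Plxna2, Sema3a passed the signal filter only through the T1α(+/+) lungs of E18.5.

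Macrophage genes were led by C1qa and C1qb, subunits of the first complement component, at 0.72 and 0.64. C1qa gave 213.5, 196.9, 186.6, 158.7 and 245.4 against 67.7, 71.5, 149.2, 136.6 and 124 at E18.5, without overlap, and 174.9, 52 and 351.2 against 58.6, 66.3 and 238.9 at term, with overlap. The term lungs with the highest GAPDH ratios, G, O and N, had the lowest C1qa signals of term, and the part of RNA integrity in this was not tested. Csf1r, the receptor for the macrophage growth factor, had 0.30, and Cd68, a lysosomal marker, had 0.08. Over the 10 macrophage genes, 7 were higher, 3 of them with an unadjusted p under 0.05, or 1 without array I, and the 16 on the array summed to 1877.9 to 3792.8 against 1665.2 to 2949.5 at E18.5 and 2665.2 to 4005.2 against 3607.9 to 4164.8 at term. Neutrophil genes had 5 of 7 lower and a median of -0.24, from 0.02 at E18.5 and -0.40 at term, and 3 of the 7 had the same direction at both. S100a8, a calprotectin subunit, at -0.45, was the 1 with an unadjusted p under 0.05, or 2 without array I. Their 13 genes summed to 697.8 to 883.7 against 585.8 to 1223.4 at E18.5 and to 788.3 to 912.5 against 1070.2 to 1453.8 at term, where they did not overlap. Of 7 erythroid genes, 5 were higher, and Hbb-y, an embryonic globin, had 0.49 with an unadjusted p under 0.05. The other embryonic globins had -0.40 (Hbb-bh1) and -0.05 (Hba-x). Heart and skeletal muscle genes summed to 1595 to 7393.4 against 1311.8 to 25716.1 at E18.5, and none of the 10 tested had an unadjusted p under 0.05. Of these 10, 5 had lower signal, or 9 without array I.

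Genes of DNA replication and mitosis had 22 of 27 lower in T1α(-/-) lungs in the shared fit, with a median of -0.16, but the stages differed, at -0.40 and 0.07, and 12 of the 27 had the same direction at both. The 4 with an unadjusted p under 0.05, all lower, were Mad2l1, of the spindle checkpoint, Mcm4, of the replicative helicase, and Smc2 and Smc4, of condensin. Without array I there were 2 such genes. Smc2 passed the signal filter only through the T1α(+/+) lungs of E18.5, where it was highest. Pcna, the clamp of DNA polymerase, had -0.05, and the cell cycle inhibitor Cdkn1a (p21) had 0.12 and 0.23 in its pair of probe sets. The first value joined 0.34 at E18.5 and -0.23 at term. The second joined 0.27 at E18.5 and 0.16 at term, so the pair differed in direction at term. The study did not detect p21 as present on its arrays, and its northern blots found p21 mRNA lower in T1α(-/-) lungs at term. Cdkn1c, another cell cycle inhibitor, had -0.04, while Rb1 and Cdkn1b did not pass the signal filter. The probe sets of the growth arrest transcript Gas5 disagreed: the 1 that passed the filter had -0.18, and a dimmer one below it gave 14.8 to 38.9 in T1α(-/-) lungs against 4.1 to 22.2 at E18.5, with overlap, and 14.5 to 19.6 against 3.7 to 7.1 at term, without (exact two-sided permutation p within stages of 0.00238, not adjusted). The last gave 4.9 to 19 against 2.5 to 33.3 and 8.8 to 11.9 against 5.4 to 11.9. Proteasome and ubiquitin genes had 24 of 31 lower and a median of -0.10, with Psma2 at -0.66, from -1.06 at E18.5 and 0.01 at term, and Psma4 at -0.51, from -0.76 and -0.09, both subunits of the core particle. Without array I, 5 members rather than 3 had an unadjusted p under 0.05, all lower. Chaperones had 17 of 20 lower and a median of -0.14, with Hsp90aa1 at -0.63 from -1.08 at E18.5 and 0.12 at term. Of the 20 chaperones, 8 had the same direction at both stages. Antioxidant genes had 21 of 25 higher and a median of 0.16, with Gpx3, the plasma glutathione peroxidase, at 0.59 and Pon1, a paraoxonase, at 0.55. In these lists, too, the medians were farther from 0 at E18.5 than at term for replication, chaperones and antioxidants, and not for the proteasome, at -0.05 and -0.09.

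The remaining lists had at most 2 members at an unadjusted p under 0.05. Growth factor signaling had 15 of 25 higher with a median of 0.12, or -0.00 over all probe sets of a gene, with Dlk1, a membrane ligand of fetal tissue, at 0.49. Lung transcription factors had 7 of 14 higher, with Sp1, a factor that binds GC boxes, at -0.45 from -0.66 at E18.5 and -0.09 at term. Sp1 passed the signal filter only through the T1α(+/+) lungs of E18.5, where it was highest. Fluid and ion transport genes had 5 of 9 higher, with the anion exchanger Slc4a2 at 0.35, whose p was not under 0.05 without array I, and the chloride transporter Clcn3 at -0.44. Ribosomal protein genes had 14 of 24 higher, with Rpl22 at 0.59. Antigen presentation and interferon had 7 of 14, G1 regulators 4 of 11, cholesterol synthesis 3 of 8, prostaglandin 6 of 6 and lymphocytes 0 of 4 higher, with no member at an unadjusted p under 0.05. The prostaglandin count was 3 of 6 without array I, and 6 of 15 of these genes on the array passed the signal filter. Ptgs1, a cyclooxygenase, is not a symbol of the annotation used here and was not analysed. The study reported its signal on these arrays as lower in T1α(-/-) lungs at E18.5, so the prostaglandin count leaves out a member that went the other way. Liver, cartilage and sex-linked genes had 1, 3 and 1 members tested.

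**Figure D5:**
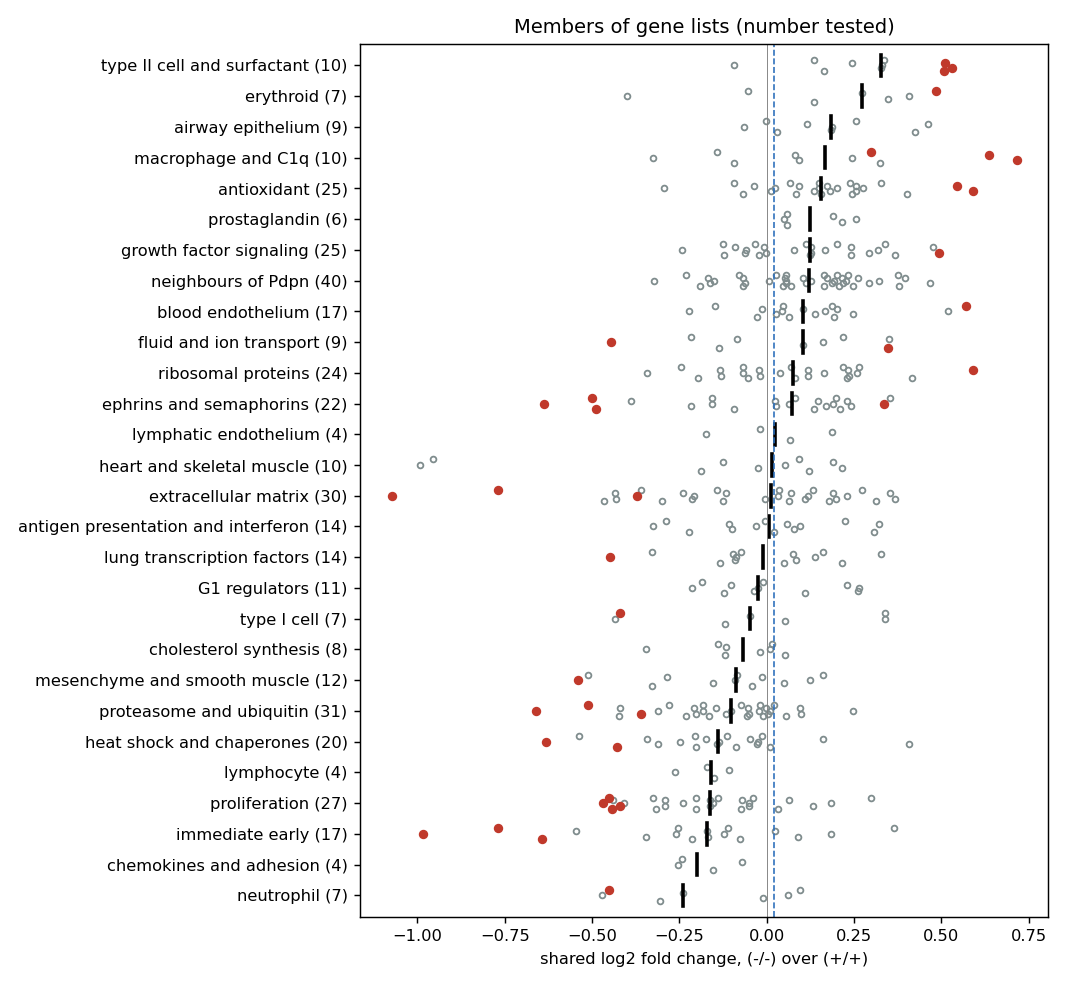
Shared log2 fold change, T1α(-/-) minus T1α(+/+), of the members of each gene list with at least 4 tested genes, with red filled points for an unadjusted p under 0.05, a black bar for the list's median and a dashed blue line for the median of all genes, 0.02. Type II cell genes lie to the right, at a median of 0.33, and immediate early, replication and chaperone genes mostly to the left.

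A targeted allele is inherited with the DNA around it, so the genes beside Pdpn were described as well. Of the 40 nearest tested genes, 20 on each side, 30 had higher signal in T1α(-/-) lungs, the median was 0.12, 23 had the same direction at both stages, and none had an unadjusted p under 0.05. Ctnnbip1, an inhibitor of beta-catenin, was highest at 0.47 and Pgd, a dehydrogenase of the pentose phosphate pathway, had 0.38. Over the 315 tested genes of chromosome 4, 60.6% were higher, with 6 higher and 5 lower at an unadjusted p under 0.05. C1qa and Tpm2 had the highest and the lowest value among them. Genetic background around Pdpn and loss of T1α cannot be told apart in these lungs.

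Sex was not recorded in the labels. Xist, the RNA of the inactive X chromosome, did not pass the signal filter: its signals were 14.7 to 99.8 and 14.3 to 80 in the T1α(-/-) and T1α(+/+) lungs of E18.5, and 7.3 to 75.8 and 6.7 to 10.2 in those of term. The groups overlapped at each stage. Eif2s3y, a gene of the Y chromosome, was tested and had -0.42 (limma adjusted p = 0.953). Uty, also of the Y chromosome, did not pass the filter. It gave 3.5, 1.9, 1.7, 21.8 and 0.8 in T1α(-/-) lungs at E18.5 against 20.2, 26.2, 18.6, 1.6 and 13.7. At term it gave 23.1, 2.7 and 19 against 31.8, 28.9 and 14.9 (exact two-sided permutation p within stages of 0.0484, not adjusted). All T1α(+/+) lungs of term had Xist of 10.2 or below, while the T1α(-/-) lung G had 75.8 with Uty of 2.7. At E18.5 Uty was 3.5 or below on A, B, C and E, where Xist was 27.2 to 99.8. Among T1α(+/+) lungs of E18.5 it was that low only on L, where Xist was 80, and M had 13.7 with Xist of 44.9. The overlap of Xist thus does not show that the sexes were balanced. Whether the genotypes differed in their mix of sexes was not tested. With the log2 Xist signal as a covariate Pdpn had -2.04 and the CCL21 probe set -1.47, and both remained called in limma. With that covariate 188 probe sets rather than 250 had an unadjusted p under 0.05. Of those picked at E18.5 alone, 51.8% rather than 58.4% had the same direction at term.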

How the data were processed

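RNA of 1 whole lung was measured on each array, an Affymetrix U74Av2 chip for mouse transcripts. The authors derived 1 signal intensity per probe set with Microarray Suite and scaled each array before deposit, so the deposited intensities are linear and not counts. A genome build is not given in the sources used here. Of 12488 probe sets, 66 are controls. Of the other 12422, the platform annotation gives 1 symbol for 10833, several for 396 and none for 1193, and 10817 symbols were found in the RefSeq table of GRCm38.p6.

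Signals were converted to log2(signal + 16) and fitted with genotype and stage in limma 3.58.1 (R 4.3.3; lmFit, and eBayes with an intensity trend), with Benjamini-Hochberg adjustment over 6405 probe sets. This left 13 residual degrees of freedom; effects within a stage came from a fit of the 4 groups, with 12. The methods of the study tested each stage alone. Genes were named if called, if not overlapping at both stages, if among the 12 largest changes each way at an unadjusted p under 0.01 with the same direction at both stages, if among up to 3 members per list at an unadjusted p under 0.05, or if sex-linked or on a short list drawn from the study's discussion. The comparison, gene lists and tests were chosen with earlier results of these data known. Scripts were tested on simulated data. The number of arrays limits the precision.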

Additional observations from a re-analysis of the deposited data

Results flagged for a closer look

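Of 150 groups of 5 lungs at E18.5 examined over the named genes, 11 (7.33%) held 1 array whose signal lay far from the other 4, where chance gives about 1 in 20; groups of 3 at term were not examined. In T1α(-/-) lungs, array A had 3.4 for Nr4a1 (others 31.3 to 36) and 57.2 for Nup54 (others 9.6 to 11.5). Array B had 5.6 for a dim probe set of Asxl1 (others 32.4 to 40.2), and array D had 134.1 for the tested probe set of Asxl1 (others 101.3 to 104.3) and 21.8 for Uty, a gene of the Y chromosome (others 0.8 to 3.5). Array D also had the lowest Xist signal of its group, 14.7, and the highest Eif2s3y signal, 33.4. Whether its Uty signal reflects the sex of the lung was not tested. In T1α(+/+) lungs, array I had 40.9 for C1qb (others 98.8 to 125.1) and 28 for Cdkn1b (others 3.5 to 8.6). Array J had 248.4 for Gpam (others 377.7 to 433.6), and array K had 60.2 for Pdpn (others 111.6 to 135.5). Array L had 2716.8 for Muc1 (others 1170.4 to 1364.9) and 36.7 for Tpm2 (others 72.7 to 83.9). Cdkn1b, Uty and the dim Asxl1 probe set did not pass the signal filter.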

How the results depend on the processing

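The 31 alternatives left out each array in turn (16) or changed 1 setting (15). Pdpn lay between -2.18 and -1.85 when an array was left out (limma adjusted p of 5.14e-05 to 0.00303) and the CCL21 probe set between -1.57 and -1.31 (0.000315 to 0.00624). Ordinary least squares without limma's pooled variance gave Pdpn -2.01 on log2 signals (adjusted p = 0.051) and a difference of -96.9 signal units on linear signals (adjusted p = 0.619), and gave the CCL21 probe set adjusted p of 0.0533 and 0.619. Called probe sets numbered 2 to 3 when an array was left out, the third being P2rx6 without the T1α(+/+) lung P. The count was 3 with stages weighted equally, Ccn1 being added (log2 fold change -0.90), 1 with a stricter filter that only the top 25% of values pass and Pdpn does not, and 0 under ordinary least squares on log2 or linear signals. Probe sets at an unadjusted p under 0.05 numbered 403 with no filter, 130 with the stricter filter, 98 with no stage term, 120 with stages weighted equally, and 163 (without B) to 442 (without P) when an array was left out, and 398 without K. The higher ones were 76 with the stricter filter, 51 with no stage term, 60 with stages weighted equally, and 77 (without B) to 244 (without P) on leaving out an array, with 198 without K. The lower ones were 77 with arrays centred on their median, 256 with no filter, 54 with the stricter filter, 47 with no stage term, 60 with stages weighted equally, 210 with array quality weights, and 79 (without J) to 200 (without K) on leaving out an array, with 84, 83 and 198 without C, M and P. The cause of these shifts was not tested. Probe sets whose genotypes did not overlap at both stages numbered 2 with the stricter filter and 3 with a filter over the 2 genotypes, which Plxna2 did not pass. On leaving out an array they numbered 4 to 14, with 9, 7, 7 and 14 without F, J, O and P, as fewer arrays must be apart. A difference between stages was called for 1 probe set by ordinary least squares on linear signals, where the genotype share of the sum of squares was 2.02%; that share was 3.71% to 5.33% on leaving out an array. Of 1923 values for 63 named probe sets other than that of Pdpn, 1899 kept direction and side of the threshold, 20 changed sign, 2 passed the threshold and 2, both of the CCL21 probe set under ordinary least squares, no longer did. The sign changes were in genes near 0: Asxl1 (-0.0091 with quantile normalization, -0.067 with Xist as a covariate, -0.095 to 0.124 on leaving out an array), Cdkn1c (0.019 with the GAPDH ratio, -0.119 to 0.091), Pcna (0.022 with Xist, -0.211 to 0.100) and 1 probe set of Cdkn1a (-0.056 to 0.215). All 124 alternative medians of the 31 lists moved by less than the spread between arrays, 9 of them changing sign; among these alternatives, leaving out array I was added after the data had been seen. No paired analysis was possible because each array letter occurs in 1 group. Low signals limit what dim probe sets can show.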
